A study of Homo sapiens with 39 samples.

Results

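The genes examined here encode the protein side of the lipoprotein particles that liver cells secrete. They are APOA1, APOA2, APOA4, APOA5, APOB, APOC3, APOE, APOH, APOM and MTTP, chosen by name, and all 10 were found, each with 1 target, among the 20802 gene targets of the deposited tables. HepaRG™ cells, an established human hepatic progenitor cell line, had been differentiated, cryopreserved and recovered in culture before they were exposed to a test chemical once a day, and RNA was taken 7 h after the third treatment (55 h of exposure in all). Expression was measured with AmpliSeq, a targeted method with 1 primer pair for each gene.

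The 5 DNA damage-inducing (DDI) chemicals were aflatoxin B1 (AFB1; 0.25, 1 and 2.5 µM), 2-nitrofluorene (2NF; 10, 50 and 250 µM), cisplatin (CISP; 2, 5 and 10 µM), etoposide (ETP; 0.5, 2.5 and 10 µM) and methyl methanesulfonate (MMS; 50, 100 and 200 µM). The 5 non-DDI chemicals were colchicine (COL; 0.05, 0.1 and 0.3 µM), 2-deoxy-D-glucose (2DG; 1.25, 5 and 10 mM), sodium ascorbate (ASC; 1, 2 and 10 mM), ampicillin trihydrate (AMP; 1, 3 and 10 mM) and sodium chloride (NaCl; 1, 2.5 and 10 mM). The 3 concentrations of a chemical are called low, mid and high. The 9 vehicle controls comprised 4 in DMSO (for CISP, for 2NF, for ETP, and 1 shared by AFB1 and COL), 4 in media (for 2DG, ASC, AMP and NaCl) and 1 in water (for MMS). Each of the 39 libraries was made from the pooled RNA of 3 cultures, so a single treated library set against its control has no replicate check, and the 3 concentrations of a chemical share that control. The libraries held 8504699 to 16425527 counts each (median 11202013). The libraries furthest from the others were the mid and high MMS libraries, whose median correlations with the other libraries over genes were 0.975 and 0.979. The low and mid CISP and the high COL library followed, each at 0.985, and the rest were at 0.986 or above.

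Apolipoproteins coat lipid particles that would otherwise not dissolve in blood, and they direct those particles to enzymes and receptors. Hepatocytes build very low density lipoprotein (VLDL) by loading triglyceride onto the large APOB protein as it enters the endoplasmic reticulum, a step that needs the microsomal triglyceride transfer protein encoded by MTTP. High density lipoprotein (HDL) is built around APOA1, and the smaller APOC and APOA proteins move between particles and tune how fast their triglyceride is removed. HNF4A is a transcription factor of the hepatocyte that is known to bind the promoters of many of these genes.

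Sequences upstream of transcription starts were taken from RefSeq (GRCh38.p14), where 7 of the 10 genes had an entry, with 11 starts in all. No target coordinates were used, since the deposited tables were made on hg19. The 2 sequences printed here are the 250 bases before 1 start each of MTTP, which fell in 4 chemicals in these data, and of APOM, which did not fall with it in MMS. Capitals mark matches on either strand to AAAGGTCA, a nuclear receptor half-site with its leading A bases, or to CAAAGNNCA, a form of the HNF4 site. The motifs were chosen with the sequences in view.
MTTP, one of 2 starts, chr4:99574574-99574823, plus strand: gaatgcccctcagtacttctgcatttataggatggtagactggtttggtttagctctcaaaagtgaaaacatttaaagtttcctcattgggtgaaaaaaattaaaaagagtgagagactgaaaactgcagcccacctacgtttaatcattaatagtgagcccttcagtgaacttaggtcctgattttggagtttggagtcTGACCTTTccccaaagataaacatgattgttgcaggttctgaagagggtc
APOM, chr6:31655644-31655893, plus strand: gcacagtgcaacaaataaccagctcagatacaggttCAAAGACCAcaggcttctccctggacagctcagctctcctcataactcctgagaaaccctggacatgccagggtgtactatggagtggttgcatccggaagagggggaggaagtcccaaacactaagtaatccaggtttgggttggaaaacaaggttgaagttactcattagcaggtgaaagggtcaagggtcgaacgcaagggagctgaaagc

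The half-site lay 43 to 50 bases before the MTTP start, also stood before a start of APOA5, and occurred in 1.05% of the 35116 RefSeq promoters over the same 250 bases. The HNF4 form lay 206 to 214 bases before the APOM start and occurred in 4.44% of promoters. A match describes these letters only. Other forms of such sites were not searched for, so unmarked bases, also those close to the APOM start, do not show that a site is absent.

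Levels are given as RPM, the count of a gene scaled to the library total, and a log2 ratio is log2(RPM + 1) in a treated library minus the same value in its matched control. Genes at low RPM change by less on this scale than their counts do. Primers differ in efficiency, so RPM values of different genes are not compared. Over all 39 libraries APOB ran from 722 to 5576 RPM, APOA1 from 192 to 3467 RPM, APOE from 805 to 3090 RPM, APOH from 144 to 1564 RPM and APOC3 from 41.7 to 1065 RPM. MTTP ran from 4.13 to 65.2 RPM. APOA2, APOA5 and APOM had few reads, with lowest counts of 10, 3 and 16 in a library, and APOA4 had a median of 6 counts. APOA4 had 0 counts in the high MMS library, which allows a level of up to 0.338 RPM and covers counting error only. APOA1 overlaps the antisense gene APOA1-AS, and how strand was handled in the counting is not given in the sources used here.

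Concentration dependence was tested on the deposited counts by the quasi-likelihood method of edgeR, in 1 fit of all 39 libraries with a term for each control set and, for each chemical, a slope in log2 units per step over 3 steps from control to low, mid and high. A gene is said to have fallen where its Benjamini-Hochberg adjusted p over all 13812 genes tested was under 0.05. Of the 100 member slopes, 28 passed, all of them downward, in AFB1, 2NF, MMS and COL. In MMS 7 of the 10 genes fell, beside 10.4% of all genes tested. In COL 8 fell, beside 7.21% of all genes. In 2NF 7 fell, beside 4.45%, and in AFB1 6 fell, beside 3.21%. The median slope of the 10 genes was -0.66 in MMS, -0.63 in AFB1, -0.51 in COL and -0.42 in 2NF, whereas the median over all genes tested lay between -0.01 and 0.00 in these chemicals. Without the high concentrations, 7 members fell in MMS beside 7.03% of all genes, 3 in 2NF beside 2.09%, 1 in COL beside 0.204% and 0 in AFB1 beside 0%. Without the mid MMS library 7 fell in MMS, beside 7.85%, and without both the mid and the high MMS library, which leaves 1 treated library, 0 fell, beside 0%, both choices made after the values were seen. Without the controls, a fit that keeps 3 libraries per chemical, 0 of the 28 slopes passed, beside 0.219% of all genes lower in MMS, 0.0876% in COL, 0.409% in 2NF and 0.0219% in AFB1. With the concentration coded relative to the highest, 1 fell in 2NF, beside 1.7%. In bulk RNA, fewer cells of a type and less RNA per cell cannot be told apart.

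APOB and MTTP, the scaffold of VLDL and the protein that loads it, fell together. In MMS, APOB went from 3133 RPM in the water control to 2126, 722 and 1017 RPM at the low, mid and high concentration. In COL it went from 4521 RPM to 3765, 3450 and 1859 RPM. In 2NF it went from 3422 RPM to 3131, 2405 and 1476 RPM. The loss in COL came largely with the last step, whereas in MMS the mid library was lower than the high one. APOB fell with a slope of -0.65 ± 0.11 (SE, adjusted p = 0.0002) in MMS, -0.45 ± 0.11 (adjusted p = 0.00728) in COL and -0.42 ± 0.12 (adjusted p = 0.0227) in 2NF. In AFB1 it read 4521 RPM in the control it shared with COL, then 4110, 3729 and 2264 RPM, and its slope of -0.37 ± 0.11 gave an adjusted p of 0.0511.

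MTTP had steeper fitted slopes than APOB in MMS, COL, AFB1 and 2NF, a difference between genes that was not tested. It had 28 RPM in the MMS control and 16.3, 4.13 and 4.40 RPM at the low, mid and high concentration. It had 58.1 RPM in the control of AFB1 and COL, then 44.6, 33.5 and 12.0 RPM in AFB1 and 35.7, 29 and 13.2 RPM in COL. In 2NF it went from 56.3 to 52.4, 19.2 and 23.7 RPM. The mid and high libraries of AFB1, COL and 2NF thus lay below the lowest DMSO control, at 52.4 RPM, and the 3 MMS libraries below the water control. MTTP fell with slopes of -1.06 ± 0.15 in MMS (adjusted p = 2.23e-05), -0.75 ± 0.13 in COL (adjusted p = 0.000154), -0.71 ± 0.13 in AFB1 (adjusted p = 0.000841) and -0.53 ± 0.13 in 2NF (adjusted p = 0.00587).

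APOA1, the main protein of HDL, fell in all 4 chemicals. It went from 1245 RPM in the MMS control to 776 RPM at the low, 192 RPM at the mid and 233 RPM at the high concentration. In 2NF it went from 2868 RPM to 2813, 1225 and 955 RPM. In the shared DMSO control it had 3320 RPM, against 2565, 2042 and 1088 RPM in AFB1 and 2417, 1842 and 1114 RPM in COL. The high libraries of 2NF, AFB1 and COL lay below all 4 DMSO controls, which spanned 2868 to 3467 RPM, and in MMS all 3 lay below the water control. The slopes were -0.94 ± 0.11 in MMS (adjusted p = 4.73e-06), -0.62 ± 0.12 in 2NF (adjusted p = 0.000786), -0.57 ± 0.11 in COL (adjusted p = 0.000779) and -0.55 ± 0.11 in AFB1 (adjusted p = 0.00291).

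APOA2, the second protein of HDL, fell in COL (slope -1.10 ± 0.19, adjusted p = 0.000199), AFB1 (-0.82 ± 0.18, adjusted p = 0.00416) and MMS (-0.71 ± 0.18, adjusted p = 0.008). Its counts in the high libraries were 10 in COL, 12 in AFB1 and 19 in MMS. The 4 DMSO controls ran from 2.06 to 11.9 RPM, a log2 difference of 2.08 on the log2(RPM + 1) scale. None of its 30 log2 ratios lay further below 0 than that difference.

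APOM, which carries sphingosine-1-phosphate on HDL, had a slope above 0 in MMS, where 7 other members fell. It had 1.90 RPM in the MMS control and 3.02, 2.90 and 4.40 RPM at the low, mid and high concentration, a slope of 0.32 ± 0.13 that did not pass (adjusted p = 0.102). In 2NF it went from 6.60 RPM to 5.25, 2.77 and 3.26 RPM and fell with a slope of -0.42 ± 0.12 (adjusted p = 0.0246). The 2NF control was the highest of the 4 DMSO controls, which otherwise had between 2.86 and 3.56 RPM, and the APOM call in 2NF was lost with DESeq2 (adjusted p = 0.0521).

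APOC3, APOA5 and APOA4 lie beside APOA1 on chromosome 11, in the order APOA5, APOA4, APOC3, APOA1 among protein-coding genes. APOC3 slows the clearance of triglyceride-rich particles, and APOA5 speeds it. APOC3 had 679 RPM in the shared DMSO control and 453, 239 and 77.7 RPM in AFB1, a log2 ratio of -3.11 at the high concentration. It had 462, 358 and 155 RPM in COL. In 2NF it went from 1065 RPM to 902, 190 and 276 RPM, and in MMS from 226 RPM to 216, 41.7 and 75.2 RPM. The low MMS library thus stayed close to its control, and the 2NF and MMS mid libraries lay below the high ones.

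APOC3 fell in AFB1 (slope -1.06 ± 0.18, adjusted p = 0.000633), 2NF (-0.80 ± 0.18, adjusted p = 0.00317), COL (-0.77 ± 0.18, adjusted p = 0.00358) and MMS (-0.72 ± 0.18, adjusted p = 0.00709). APOA5 went from 6.59 RPM in the shared control to 3.66, 2.55 and 0.281 RPM in AFB1, where the high library held 3 counts. In COL it read 2.64, 1.89 and 0.976 RPM, and in 2NF it went from 10.6 RPM to 8.88, 1.52 and 3.45 RPM. APOA5 fell in AFB1 (slope -1.02 ± 0.22, adjusted p = 0.0044), COL (-1.0 ± 0.22, adjusted p = 0.00244) and 2NF (-0.73 ± 0.20, adjusted p = 0.0166). In MMS it had 2.70 RPM in the control and 2.42, 1.14 and 1.24 RPM with treatment, a slope of -0.49 ± 0.25 (adjusted p = 0.196). APOA4, mainly an intestinal apolipoprotein, passed in no chemical, and its adjusted p ranged from 0.206 in AFB1 to 1 in ETP and 2DG. Its highest level was 5.27 RPM (55 counts) at 250 µM 2NF.

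APOE, the ligand that remnant particles present to hepatic receptors, had the smallest fitted slopes of the 5 abundant members (APOB, APOA1, APOC3, APOE and APOH) in each of the 4 chemicals. It went from 1833 RPM in the MMS control to 1471, 805 and 843 RPM, and from 3090 RPM in the shared DMSO control to 2673, 2406 and 1760 RPM in COL. The high COL library lay within the range of the DMSO controls, whose lowest value was 1751 RPM. APOE fell in MMS (slope -0.46 ± 0.08, adjusted p = 0.000404) and COL (-0.28 ± 0.08, adjusted p = 0.0167). The slope in AFB1 was -0.26 ± 0.08 (adjusted p = 0.053), and that in 2NF -0.20 ± 0.08 (adjusted p = 0.158). Without the AFB1 libraries the COL call was lost (adjusted p = 0.0538).

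APOH, a plasma glycoprotein that binds phospholipid and is also called beta-2-glycoprotein I, fell in all 4 chemicals. It went from 550 RPM to 383, 144 and 169 RPM in MMS and from 909 RPM to 728, 479 and 432 RPM in 2NF. From 1215 RPM in the shared control it went to 974, 831 and 513 RPM in AFB1 and to 966, 828 and 502 RPM in COL. The slopes were -0.67 ± 0.11 in MMS (adjusted p = 0.000128), -0.44 ± 0.11 in COL (adjusted p = 0.00509), -0.44 ± 0.11 in AFB1 (adjusted p = 0.0114) and -0.40 ± 0.11 in 2NF (adjusted p = 0.0176). The AFB1 and COL series rest on the same control and are not independent. In CISP, APOH had 890 RPM in the control, 789 RPM at the low, 371 RPM at the mid and 723 RPM at the high concentration, so that its low value stood in the mid library alone. Its slope in CISP did not pass (adjusted p = 0.802), but it passed without the high concentrations (adjusted p = 0.0402), where 1.06% of all genes were lower in CISP.

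Counted by size, 7 of the 10 genes were at least 2-fold lower at 200 µM MMS, beside 5.36% of all genes tested. At 100 µM MMS 7 were, beside 7.04%. At 0.3 µM COL 7 were, beside 4.41%, and at 2.5 µM AFB1 6 were, beside 2.95%. In 2NF 6 were at 250 µM, beside 3.16%, and 6 at 50 µM, beside 3.95%. Against the mean of all 9 controls in place of the 2NF control, 3 were at 250 µM, beside 2.62%, and 3 at 50 µM, beside 2.59%. That mean takes in the media and water controls, whereas 2NF was given in DMSO, so it mixes in differences between vehicles. At 2 µM CISP 0 were, beside 6.24%, at 5 µM 1 was, beside 4.05%, and at 10 µM 1 was, beside 0.376%. At 10 µM ETP 0 were, beside 0.0724%.

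No member passed in CISP, ETP, 2DG, ASC, AMP or NaCl with edgeR, and none was lower with DESeq2. At an unadjusted p under 0.05 there were 2 members in NaCl, 1 in CISP, 1 in ASC and 0 in ETP, 2DG and AMP. Of the 13812 genes tested, 639 had such a p in NaCl, 918 in CISP and 1964 in ASC. There were 591 in ETP, 212 in 2DG and 418 in AMP. Few slopes of any gene passed in these chemicals, with 0.0434% of all genes lower in ASC, 0.00724% lower in NaCl and 0% lower in CISP, ETP, 2DG and AMP. In CISP the low and mid libraries held more genes at least 2-fold lower than the high one, a pattern that a slope can miss. In the other direction 0.0796% were higher in ETP, 0.0362% in NaCl and 0.0145% in ASC. MTTP had slopes of -0.14 ± 0.12 in CISP and -0.12 ± 0.12 in ETP. APOA1 had slopes of -0.14 ± 0.12 and -0.05 ± 0.11. CISP and ETP are DDI chemicals given in DMSO, as AFB1 and 2NF are.

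Because slopes that pass in some chemicals and not in others are not thereby different, the slope of each of the 4 chemicals was set against the mean slope of CISP and ETP within the fit, a comparison chosen after the values were seen. In MMS 5 members had a lower slope (APOB, MTTP, APOA1, APOE and APOH), beside 4.84% of all genes. The difference was -0.93 ± 0.17 for MTTP (adjusted p = 0.00145) and -0.84 ± 0.14 for APOA1 (adjusted p = 0.000481). In COL 3 had (MTTP, APOA1 and APOA2), beside 2.66%, with a difference of -0.62 ± 0.15 for MTTP (adjusted p = 0.0155). In 2NF APOA1 alone had (-0.53 ± 0.14, adjusted p = 0.038), beside 1.99%, and in AFB1 APOC3 alone had (-1.02 ± 0.22, adjusted p = 0.0368), beside 0.42%.

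Between the study's classes of chemicals no member passed. With edgeR on 19 libraries per concentration, 0 members differed between DDI and non-DDI chemicals at the high, mid or low concentration, beside 0% of all genes lower in DDI at each. DESeq2 also called 0 members. In simulated counts the edgeR fit at the high concentration called 34 of 100 genes given a log2 difference of 1, so it can miss differences of this size. At an unadjusted p under 0.05 there were 0, 3 and 0 members at the high, mid and low concentration. Beside them stood 1069 of 13602, 783 of 13626 and 308 of 13634 genes tested. MTTP at the high concentration averaged a log2 ratio of -1.32 ± 0.97 (SD, n = 5 chemicals) for DDI and -0.36 ± 0.97 (SD, n = 5) for non-DDI, and the fitted difference was -0.97 ± 0.48 (SE, edgeR adjusted p = 0.679). APOC3 averaged -1.45 ± 1.19 and -0.61 ± 0.88, with a difference of -0.91 ± 0.50 (adjusted p = 0.723). For 0 of the 10 genes did all 5 DDI chemicals lie below all 5 non-DDI chemicals, beside 0.282% of all genes tested (high concentration), 0.239% (mid) and 0.174% (low). Members fell in COL, a tubulin-binding aneugen counted as non-DDI, and in 3 of the 5 DDI chemicals.

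The vehicle itself went with some levels. APOC3 had 777 ± 197 RPM in DMSO controls and 387 ± 106 RPM in media controls (SD, n = 4 each), a difference of 1.02 ± 0.22 (SE, edgeR adjusted p = 0.0232). APOA5 had 8.08 ± 1.86 and 4.05 ± 0.90 RPM, a difference of 1.00 ± 0.22 (adjusted p = 0.0276). APOA1 had 3156 ± 284 and 1819 ± 534 RPM, a difference of 0.82 ± 0.21 (adjusted p = 0.0475). These 3 of the 9 members tested were higher in DMSO, beside 1.66% of all genes, and their values did not overlap between the vehicles. MTTP did not overlap either, at 52.4 to 58.1 RPM in DMSO and 26.1 to 51.4 RPM in media, but missed the threshold (adjusted p = 0.186). The share of all genes without overlap was not counted, so the lack of overlap is not read as a result about these genes. The count of 3 was 0 without the 2NF or the ETP control, 1 without the CISP, NaCl or AMP control, and 2 without any other control. In these fits 56 to 256 of all genes were higher in DMSO. Controls of the 2 vehicles also belonged to different chemicals, and vehicle cannot be told apart from other differences between their control sets.

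The other genes of lipoprotein metabolism were read in the same fit. Of all genes tested, 10.4% fell in MMS, 7.21% in COL, 4.45% in 2NF and 3.21% in AFB1. Those that rose numbered 705 of 13812 in MMS, 708 in COL, 594 in 2NF and 326 in AFB1. Counts of 1 or 2 in this and the following short lists are not read as a result about the list. Of 11 tested genes listed for particle assembly and secretion, 5 fell in 2NF, 5 in MMS, 4 in COL and 0 in AFB1, and 0 rose. Without ACAT2, a thiolase of sterol synthesis that the list also held, 4 of 10 fell in 2NF, 4 in MMS and 3 in COL. Among the genes that fell were CIDEB, which helps lipidate VLDL (slope -0.90 ± 0.17 in MMS, adjusted p = 0.000713), DGAT2, which makes triglyceride (-0.41 ± 0.07 in COL, adjusted p = 0.000465), and ACAT2 itself (-0.33 ± 0.09 in COL, adjusted p = 0.0109). Of 7 further apolipoproteins, 2 fell in each of 2NF, MMS and COL and 1 rose in AFB1. APOC1 fell by 0.63 on the log2 scale per step in MMS (adjusted p = 0.000659), CLU, the extracellular chaperone clusterin, by 0.41 per step in 2NF (adjusted p = 0.00619), and the intracellular APOL3 rose by 0.41 in AFB1 (adjusted p = 0.0324).

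Of 8 genes of particle remodelling, 3 fell in MMS, 2 in 2NF, 2 in COL and 1 in AFB1. The shares of all genes lower were 10.4%, 4.45%, 7.21% and 3.21%. The endothelial lipase gene LIPG fell in 3 chemicals (-0.67 ± 0.13 in MMS, adjusted p = 0.000891). ANGPTL4, an inhibitor of lipoprotein lipase, rose instead, with a slope of 1.23 ± 0.13 in 2NF (adjusted p = 1.4e-06) and 0.75 ± 0.12 in COL (adjusted p = 8.24e-05). Of 5 receptors and transporters, 2 fell in COL and 1 in 2NF. They were ABCA1, which loads cholesterol onto APOA1 (-0.40 ± 0.11 in COL, adjusted p = 0.014), and SCARB1, the HDL receptor (-0.24 ± 0.06 in COL, adjusted p = 0.00613).

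All 11 listed transcription factors fell in MMS, 9 fell in COL, 3 in 2NF and 2 in AFB1, and the median slopes were -0.47, -0.55, -0.27 and -0.35. Of all genes tested, 10.4%, 7.21%, 4.45% and 3.21% fell in these chemicals, in the same order. MLXIPL, the carbohydrate-responsive factor ChREBP, fell in all 4 (-0.60 ± 0.08 in COL, adjusted p = 9.42e-06), as did SREBF1, a regulator of lipid synthesis (-0.26 ± 0.07 in 2NF, adjusted p = 0.0158). NR1H3, the oxysterol receptor LXR alpha, fell in 3 (-0.57 ± 0.07 in COL, adjusted p = 6.82e-06). HNF4A, named after its values were seen, fell in COL (-0.58 ± 0.15, adjusted p = 0.0101) and MMS (-0.47 ± 0.15, adjusted p = 0.0374).

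Many hepatocyte markers fell in the same chemicals as these genes. Cholangiocyte markers also fell in MMS (3 of 4 tested), 2NF (2 of 4, with 1 higher) and COL (1 of 4), but not in AFB1. Of 8 hepatocyte markers, 6 fell in MMS, 5 in COL, 5 in AFB1 and 4 in 2NF. The shares of all genes lower were 10.4%, 7.21%, 3.21% and 4.45%. TTR, the thyroid hormone carrier transthyretin, fell with slopes of -0.83 ± 0.12 in MMS (adjusted p = 4.56e-05) and -0.83 ± 0.13 in 2NF (adjusted p = 0.000105). TF, encoding transferrin, had -0.87 ± 0.14 in MMS (adjusted p = 9.51e-05), and TAT, an amino acid-degrading enzyme, -1.40 ± 0.30 in 2NF (adjusted p = 0.00261). The summed level of the 8 markers was 4451 to 20233 RPM in the 3 MMS libraries, all below the 26096 RPM of the water control. It was 25020 to 43370 RPM in AFB1, 13828 to 29829 RPM in 2NF, 20091 to 36640 RPM in COL and 25193 to 37830 RPM in the 6 libraries of CISP and ETP, against 32344 to 46234 RPM in the DMSO controls. In 2DG, where no member fell, it was 18753 to 29757 RPM, against 23820 to 32742 RPM in the media controls. ALB, encoding albumin, was the largest part of this sum in the water control, at 19228 RPM. Its log2 ratios at low, mid and high were 0.30, -0.16 and -0.39 in AFB1 and -0.03, -0.01 and -0.87 in COL. They were -0.33, -1.31 and -1.37 in 2NF and -0.34, -3.06 and -1.91 in MMS. In CISP they were -0.92, -1.36 and -0.35, and in ETP 0.40, 0.31 and 0.46.

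Of the 7 cholangiocyte markers, 4 were tested and 3 (KRT7, EPCAM and CFTR) stayed at or under 1 RPM in every library, so these defining markers were near 0. Of the 4, 3 fell in MMS and 1 in COL, and in 2NF 2 fell and 1 rose. Beside them, 10.4% of all genes fell in MMS, 7.21% in COL and 4.45% in 2NF, where 594 of 13812 rose. In AFB1 0 passed. SPP1 fell in MMS (-0.61 ± 0.09, adjusted p = 5.8e-05) and rose in 2NF (0.39 ± 0.10, adjusted p = 0.00827), and SOX9 fell in MMS (-0.53 ± 0.13, adjusted p = 0.00502). The list summed to 303 to 321 RPM in 2NF, below the 468 to 1344 RPM of the DMSO controls. It summed to 502 to 1018 RPM in MMS, below the 1272 RPM of the water control. KRT19 was already at a log2 ratio of -1.64 at 10 µM 2NF and stood at -1.55 and -1.65 at 50 and 250 µM. In CISP, where no member passed, KRT19 had log2 ratios of 1.09, 1.11 and 0.86 at low, mid and high. The part of cell composition in the fall of the lipoprotein genes was not tested.

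Across the 30 conditions, which share controls and so are not independent, the log2 ratios of APOB and APOA1 had a Pearson correlation of 0.95, those of MTTP and APOA1 0.95, and those of APOB and MTTP 0.88. APOM had correlations of -0.18 with APOB and 0.28 with APOC3. Of 11554 other genes that had 10 or more counts in all libraries, the 5 whose log2 ratios went most closely with the mean of the 8 members measured that deeply were BDH1 (r = 0.97), AGXT (r = 0.97), ASGR1 (r = 0.96), TTR (r = 0.96) and PIK3AP1 (r = 0.96). BDH1 is an enzyme of ketone body metabolism, AGXT a peroxisomal aminotransferase and ASGR1 a subunit of the asialoglycoprotein receptor. Their log2 ratios at the high AFB1 concentration were -2.84 for BDH1, -3.01 for AGXT and -1.47 for ASGR1. ALB, encoding albumin, had r = 0.63.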

How the data were processed

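The genes were chosen by name, and the gene lists, markers and tests were chosen with earlier results of these data known. Per the labels and the study's methods, the authors aligned AmpliSeq reads of 39 libraries (hg19) with the Torrent Mapping Alignment Program and deposited read counts per target without normalization. A second table deposited by the authors holds RPM, which divides the counts by the library total. The 10 spike-in targets, all at 0 counts, were left out. Groups came from the labels, and the DDI and non-DDI classes from the study. Counts were tested with edgeR 4.0.16 (TMM, filterByExpr, quasi-likelihood) in R 4.3.3, with 20 residual degrees of freedom in the trend fit and 8 in the class fits, after a check on simulated counts. The Benjamini-Hochberg adjustment ran over every gene in a fit. RPM values were taken to log2(RPM + 1). Alternatives used DESeq2 1.42.0, other scalings, filters, controls and concentration codings, and left out chemicals or controls. From each further list, up to 3 genes called in the most chemicals, ties by the largest slope, were named, and then the 5 genes most alike to the members. Some genes that this rule names are not reported here. Libraries carry no molecular identifiers. Low counts limit what can be read from APOA2, APOA4, APOA5 and APOM. The spread between cultures was not measured, since cultures were pooled, and p-values rest on the scatter of libraries about the fitted slopes. Python 3.11.15, pandas 2.3.3, numpy 2.4.6 and matplotlib 3.10.9 were used.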

Additional observations from a re-analysis of the deposited data

Results flagged for a closer look

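Among 80 groups of 4 or 5 libraries examined, 4 held a value far from the others, and chance gives about 1 in 20. APOB at the mid concentration of the DDI chemicals had a log2 ratio of -2.12 in MMS, next to -0.51. MTTP in the non-DDI chemicals had -0.98 (mid) and -2.05 (high), both in COL, next to 0.0059 and -0.16. APOA1 in the media controls was 1021 RPM in the 2DG control, next to 2025 RPM. Tested within the trend fit, the number of members with a lower slope than the mean of CISP and ETP was 5 in MMS, 3 in COL, 1 in 2NF and 1 in AFB1.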

How the results depend on the processing

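Of 557 values of the 28 called slopes under other settings, 495 kept direction and call, 62 lost the call and 0 reversed. Many of these settings leave out another chemical and keep the slope's own libraries, so the tally is not a measure of robustness. Without the controls all 28 slopes lost the call, and without the high concentrations 17 did and 11 kept it. The number of members that fell moved as follows. Without the controls it was 0 in AFB1, 2NF, MMS and COL, where 0.0219%, 0.409%, 0.219% and 0.0876% of all genes were lower. Without the high concentrations it was 0 in AFB1, 3 in 2NF, 1 in COL and 1 in CISP, beside 0%, 2.09%, 0.204% and 1.06% of all genes. Without the mid and high MMS libraries, a choice made after seeing the data that leaves 1 MMS library and its control, it was 0 in MMS, beside 0%. With the concentration relative to the highest it was 1 in 2NF, beside 1.7%. Leaving out 1 chemical gave 6 to 8 in AFB1, beside 313 to 530 of all genes, and 7 to 8 in COL, beside 686 to 1149. Leaving out 1 control gave 0 to 2 members higher in DMSO than in media, beside 56 to 256 of all genes. With DESeq2 the members with a lower slope than CISP and ETP were 3 in AFB1 and 2 in 2NF, beside 123 and 326 of 13812 genes. For members at least 2-fold lower, the mean of all 9 controls gave 0 at 10 µM 2NF, 3 at 50 µM and 3 at 250 µM 2NF, 1 at 2 µM and 0 at 10 µM CISP, 1 at 2.5 µM and 1 at 10 µM ETP, 4 at 50 µM MMS, 1 at 0.05 µM COL, and 1, 4 and 2 at the 3 concentrations of 2DG. The mean of the controls of the same vehicle gave 0 at 10 µM 2NF, 1 at 0.05 µM COL and 1 at 5 mM 2DG. A pseudocount of 0.1 gave 1 at 10 µM ETP and 1 at each of 3 and 10 mM AMP. Apart from 50 and 250 µM 2NF against all 9 controls, these 2-fold counts have no share of all genes beside them. They are therefore not read as a result about the members. The cause of these moves was not tested. The fits match treated libraries to their own control set. No paired analysis was possible because, beyond that match, the labels give no replicate numbers.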
